A study of Mus musculus with 56 samples.

Results

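RIIIS/J is an inbred mouse strain, and its 2 arrays, 1 of prefrontal cortex and 1 of nucleus accumbens, were set against the 52 arrays of the other 26 inbred strains measured in both regions. Each array held RNA pooled from 3 males aged 8 to 10 weeks, the labels name no treatment in any group, and the whole series has 56 arrays, because 2 further strains (MRL/MpJ and NZO/HILtJ) were measured in cortex only. RIIIS/J therefore stands as 1 pool of mice, and no second RIIIS/J pool shows how far 2 pools of this strain would differ. A member is a gene with a probe set, the array's unit of measurement for a transcript, at least 1 log2 unit (2-fold) from the median of the other 26 strains in the same direction in both regions. There were 83 member genes among 8811 genes tested. A difference in a whole region cannot tell fewer cells of a type from less RNA per cell.

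The prefrontal cortex weighs and directs behaviour through excitatory pyramidal neurons, and the nucleus accumbens, a part of the ventral striatum built of inhibitory spiny projection neurons, takes part in reward and motivation. RIIIS/J is known outside this field for a low level of von Willebrand factor in blood plasma. On this array a transcript is read by 1 or more probe sets, each a group of short probes against one stretch of it, so probe sets of the same gene can report different stretches or transcript forms.

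The RIIIS/J arrays carried the markers of their labelled regions. The mean log2 intensity of 17 markers of spiny projection neurons was 4.94 in RIIIS/J cortex, below all other strains (4.96 to 8.80), and 9.74 in RIIIS/J accumbens, within their range of 6.90 to 10.16. The mean of 12 markers of cortical excitatory neurons was 8.71 in its cortex and 5.25 in its accumbens, where the other strains spanned 5.25 to 6.63 and RIIIS/J ranked lowest. Drd2, a dopamine receptor of spiny neurons, read 2.71 in RIIIS/J cortex and 8.61 in its accumbens. Some other strains stood apart by the SD of the deviations over all probe sets tested. This SD was highest in MA/MyJ in cortex (0.503) and, in accumbens, in BALB/cByJ (0.809), NON/LtJ (0.512), CE/J (0.511) and WSB/EiJ (0.459), against 0.324 and 0.339 in RIIIS/J. The counts below are also given without these 5 strains. The difference between 3' and 5' probe sets of actin and Gapdh, a sign of RNA integrity, lay within the range of the other strains on both arrays. The median linear intensity of the 2 RIIIS/J arrays was 10.2 and 9.95, within the ranges of the others.

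In RIIIS/J, 72 probe sets of 55 genes lay at least 1 log2 unit below the other strains in both regions, which is 0.448% of the 16056 probe sets tested. Another 42 probe sets of 29 genes lay at least 1 unit above them in both, 0.262% of those tested. The gene Pdxdc1 is in both groups through different probe sets, and 20 of the 114 probe sets carry no single gene name. These counts describe the rule and have no test of their own. With values under log2 5 raised to it, 40 of the 72 and 34 of the 42 passed the rule, and with a filter at log2 7 in place of log2 5, 37 and 15 did. A limma test of the strain means used all 27 strains and adjustment over all probe sets tested. It called 26 probe sets of 20 named genes lower in RIIIS/J (0.162% of those tested) and 11 of 8 named genes higher (0.0685%). Of the members, 20 of 72 lower and 5 of 42 higher probe sets were among the calls. At an unadjusted p under 0.05 the test gave 335 lower and 310 higher. Together these are a smaller share of the 16056 probe sets tested than the 0.05 expected with no difference. Without the 5 strains named above the test called 43 lower and 15 higher, and the rule gave 76 and 44. When the error was taken from the 2 regions of a strain instead, with each strain as a block, 193 were called lower and 183 higher. That error leaves out the spread between strains.

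**Figure D1:**
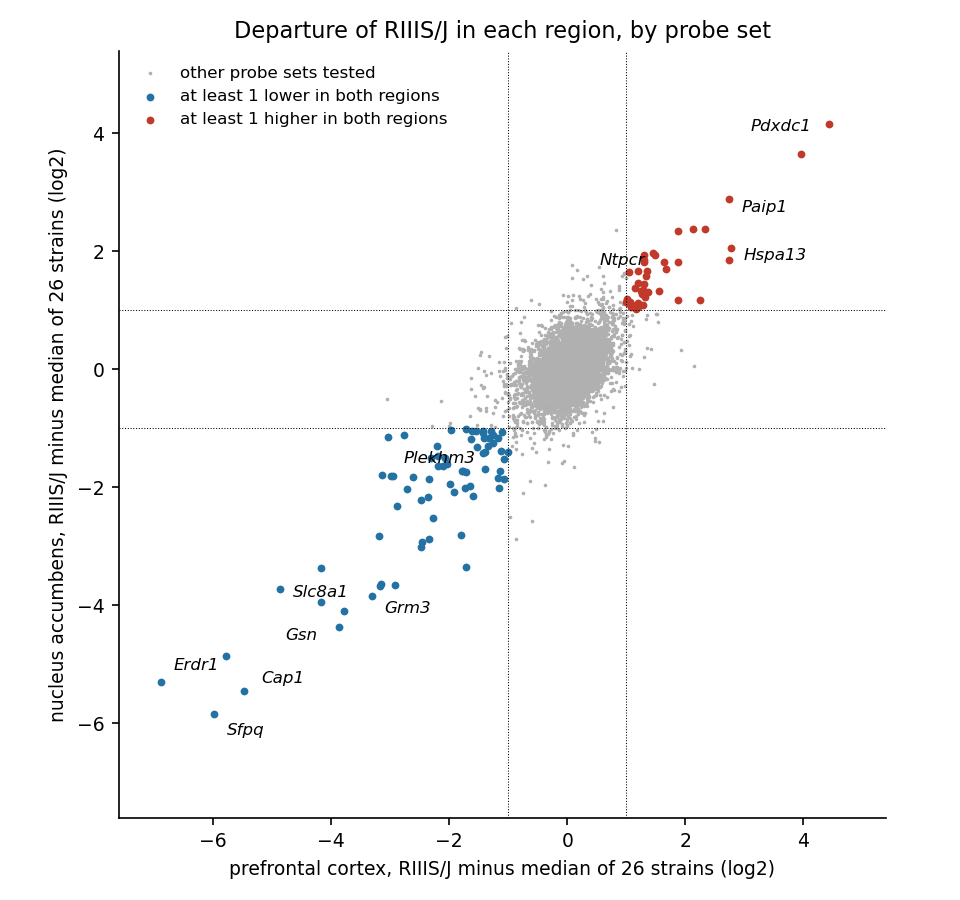
Each point is 1 of the probe sets tested, placed by its log2 difference between RIIIS/J and the median of the other 26 strains in cortex (x) and accumbens (y); blue and red points are the 72 and 42 at least 1 unit away in both, and dotted lines mark 1 unit. Sfpq lies at -5.99 and -5.84 and Erdr1 at -6.88 and -5.30, and no point lies 1 unit away in opposite directions.

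The lists of the 2 regions overlapped in part. Of 131 probe sets at least 1 unit low in RIIIS/J cortex, 55.0% were also at least 1 unit low in accumbens, against 0.766% of all probe sets tested. Of 123 low in accumbens 58.5% were low in cortex, against 0.816%. For the high side the shares were 63.6% of 66 in cortex and 39.6% of 106 in accumbens, against 0.660% and 0.411% of all. No probe set was 1 unit low in one region and 1 unit high in the other. A limma test of the difference between regions, RIIIS/J against the other strains, called 0 probe sets, with 434 at an unadjusted p under 0.05 and a smallest adjusted p of 0.351. The 434 are also a smaller share of the probe sets tested than the 0.05 expected with no difference. With no filter on dim probe sets this test called 172. Over tested probe sets with a mean above log2 5, each profile was taken as deviations from the mean of all 27 strains. The RIIIS/J cortex profile correlated with its own accumbens profile at r = 0.562 and with the accumbens of any other strain at 0.0989 at most. Both arrays may come from the same mice, so this is no independent repeat.

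The 2 genes farthest below the other strains were Sfpq and Erdr1. Sfpq encodes an RNA- and DNA-binding protein of the nucleus that takes part in splicing and forms paraspeckles with its relatives Nono and Pspc1. On probe set 1436898_at RIIIS/J read 3.02 in cortex and 4.24 in accumbens (log2 intensity). The other 26 strains read 7.93 to 9.76 in cortex (median 9.01) and 8.58 to 10.56 in accumbens (median 10.08), so RIIIS/J lay below their range by at least 4.34 units in both. The next lowest strain was NOD/LtJ, and the 2 strains measured in cortex only read 9.43 and 9.04. Because RIIIS/J fell below log2 5, the floor used for dim values, the difference is given as at least 16.1-fold in cortex and at least 33.8-fold in accumbens. The limma estimate was -5.87 ± 0.34 (SE) over both regions, with an adjusted p of 4.28e-12.

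The other 5 tested probe sets of Sfpq did not differ in this way. Probe set 1423795_at read 8.91 in RIIIS/J cortex and 9.22 in its accumbens, against medians of 8.51 and 8.69, and was the highest of the 27 strains in both regions. Probe set 1439058_at also lay above the medians, by 0.85 and 0.52. The other way went 1438458_a_at by -0.34 in cortex and -0.74 in accumbens and 1438459_x_at by -0.21 and -0.45, and 1423796_at was within 0.04 of both medians. None of these 5 was called. Only 1 of the 6 tested probe sets of this gene was therefore nearly without signal in RIIIS/J.

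Erdr1, erythroid differentiation regulator 1, lies in the pseudoautosomal region shared by the X and Y chromosomes. Probe set 1452406_x_at read 2.40 in RIIIS/J cortex and 4.12 in its accumbens. The other strains ranged from 8.16 to 11.57 in cortex (median 9.28) and from 7.94 to 11.92 in accumbens (median 9.42), and RIIIS/J lay 3.82 units or more below all of them. C3H/HeJ was also at least 1 unit below its own comparison strains, and 4 strains were at least 1 unit above. The bound was at least 19.4-fold in cortex and 21.5-fold in accumbens, and limma gave -6.26 ± 0.92 (SE) with an adjusted p of 0.000224. MRL/MpJ and NZO/HILtJ cortex read 10.74 and 8.95. The suffix of this probe set marks probes that can also match other transcripts, and the gene's second probe set was too dim in all strains to be tested. Of the 5 other genes of the sex chromosome list that could be tested, Ddx3x, Eif2s3x, Eif2s3y, Kdm5c and Kdm6a, none was called.

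**Figure D2:**
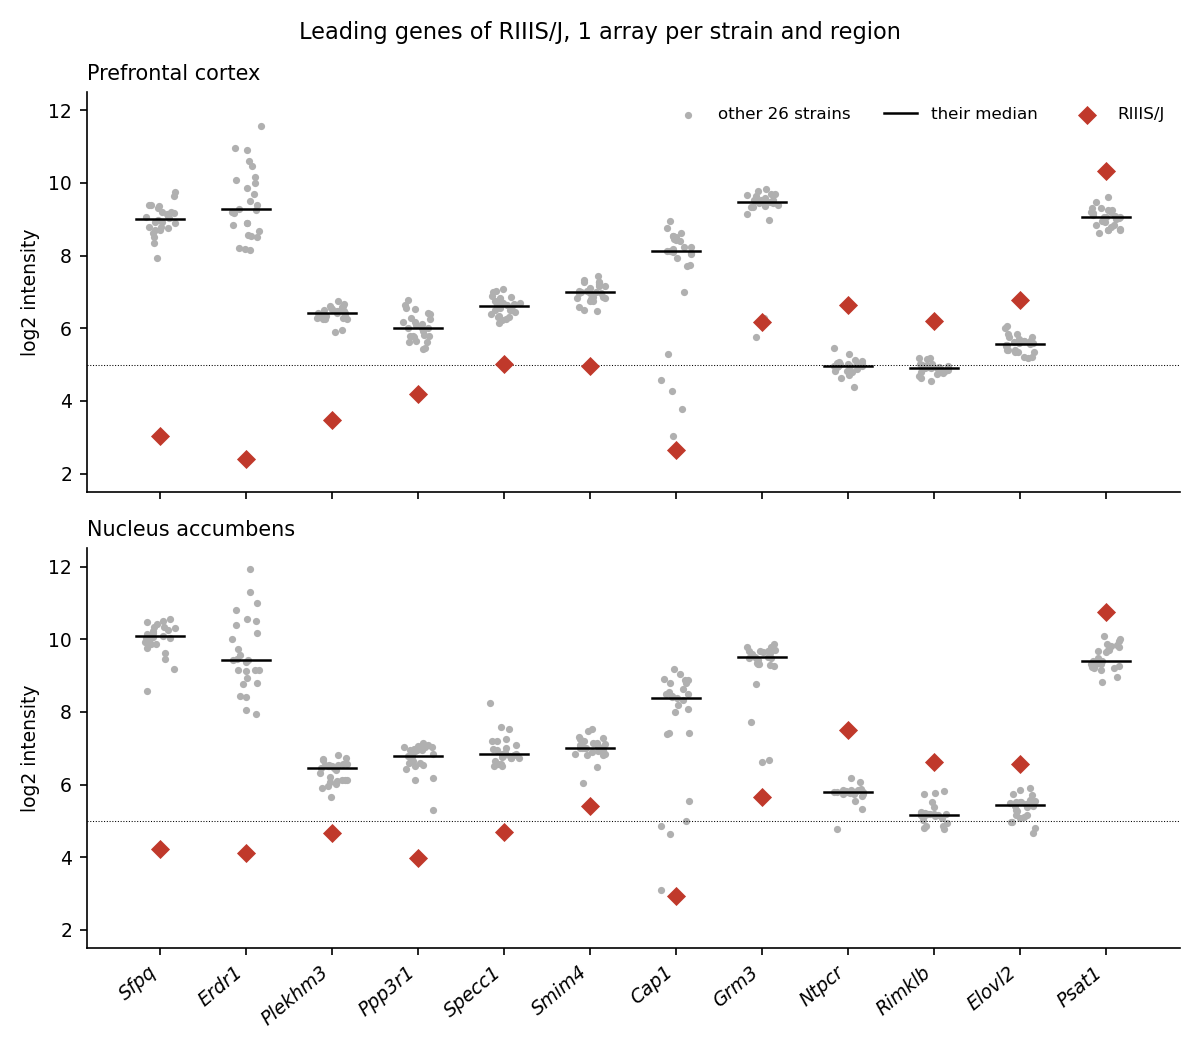
Log2 intensity of 12 genes, 1 probe set each, in cortex (top) and accumbens (bottom); grey points are the other 26 strains, the bar is their median, the red diamond is RIIIS/J and the dotted line is log2 5. RIIIS/J lies outside all other strains for Sfpq and Erdr1 in both regions, while for Cap1 and Grm3 a few other strains lie beside it.

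Plekhm3, Ppp3r1, Specc1, Dcx and Smim4 were also called lower, with RIIIS/J 0.62 to 1.26 units below every other strain in both regions. Plekhm3, which encodes a protein with pleckstrin homology domains, read 3.46 in RIIIS/J cortex and 4.66 in accumbens, against 5.88 to 6.76 and 5.65 to 6.80 in the others (limma -2.31 ± 0.19, adjusted p 9.63e-09). Ppp3r1, the regulatory B subunit of the calcium-dependent phosphatase calcineurin, read 4.20 and 3.99 on 1421786_at, against 5.43 to 6.78 and 5.31 to 7.15 (-2.29 ± 0.27, adjusted p 7.93e-06). The brighter probe set of Ppp3r1, 1433591_at, read 11.62 and 11.05 in RIIIS/J, within 0.10 of the medians of 11.54 and 11.15. Specc1, a coiled-coil protein with a calponin homology domain, read 5.01 and 4.71 on 1428794_at, against medians of 6.60 and 6.84 (-1.92 ± 0.26, adjusted p 8.50e-05), while 1458440_at lay 0.11 and 0.17 above its medians. Dcx, doublecortin, a microtubule-binding protein of migrating neurons, read 3.66 and 3.45 on 1418139_at against medians of 5.58 and 5.53 (-1.96 ± 0.22, adjusted p 3.49e-06). A second Dcx probe set, 1418141_at, was as low in RIIIS/J (2.86 and 3.00 against 5.35 and 5.22), but 4 other strains were low there too and it was not called. Smim4, a small membrane protein, read 4.96 and 5.42 against medians of 6.99 and 7.02 (-1.81 ± 0.23, adjusted p 3.11e-05).

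The other genes called lower fall by their known roles as follows. Of the cytoskeleton, Tubb5, a beta-tubulin, read 4.43 and 3.54 on 1455719_at against medians of 6.15 and 5.55 (adjusted p 0.00150), while its bright probe set 1416256_a_at lay 0.10 and 0.26 below medians of 11.30 and 10.66. Nav2, neuron navigator 2, read 3.47 and 2.44 against 5.78 and 3.94 (adjusted p 0.000221). These Nav2 values are from 1444706_at. The other tested Nav2 probe set was neither below its medians in both regions nor within 0.5 of them in both. Of membrane traffic, Napg, the gamma-SNAP of vesicle fusion, was low on 1443366_at (3.88 and 3.30 against 5.48 and 4.35), while its 2 brighter probe sets were within 0.53 of their medians. Both probe sets of Tmem123, a transmembrane protein, were called, with 1448623_at at 3.00 and 4.05 against 4.65 and 6.04. Of protein repair and turnover, Pcmt1, which repairs damaged aspartyl residues, was called on 1431086_s_at only (5.86 and 4.31 against 7.02 and 6.15), and its 3 other probe sets lay within 0.24 of their medians. Marchf7 and Trim37, both ubiquitin ligases, were called at -1.62 (1440966_at) and -0.76. Gstm5, a glutathione S-transferase, read 7.68 and 7.21, well above background, against medians of 10.14 in both regions, a 5.51-fold and 7.62-fold difference (adjusted p 0.0313). MA/MyJ and NZW/LacJ were also at least 1 unit low in it. Dnajc15, a co-chaperone of the mitochondrial inner membrane, read 6.91 and 6.22 against 8.03 and 7.60, and Btbd9, a BTB domain protein, was called on 2 of its 2 tested probe sets. Narf, Gdap10 and 5730409E04Rik complete the list, with limma estimates of -0.91, -1.22 and -3.58. With values under log2 5 raised to it, 9 of the called probe sets were no longer called, among them those of Dcx, Nav2, Tubb5, Napg, Pcmt1 and Gdap10.

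Ntpcr, Rimklb, Elovl2 and Psat1 were called higher and lay above every other strain in both regions. Ntpcr, a nucleoside triphosphatase, read 6.64 in RIIIS/J cortex and 7.50 in accumbens, against 4.38 to 5.46 and 4.79 to 6.19 in the other strains (limma 1.71 ± 0.17, adjusted p 2.61e-07), which is at least 3.12-fold in cortex and 3.25-fold in accumbens. Rimklb, a ligase that joins glutamate to N-acetylaspartate or citrate, read 6.21 and 6.62 on 1429982_at against medians of 4.91 and 5.17 (1.36 ± 0.18, adjusted p 3.23e-05), and its other tested probe set, 1435532_at, lay 0.76 and 0.65 above its medians. Elovl2, an elongase of long polyunsaturated fatty acids, read 6.78 and 6.56 against medians of 5.58 and 5.43 (adjusted p 0.000931). Psat1, an enzyme of serine synthesis, read 10.34 and 10.74 on 1451064_a_at against 8.62 to 9.60 and 8.81 to 10.10 (adjusted p 0.0229). Its second probe set lay 0.95 and 0.86 above the medians and was not called.

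The remaining called genes differed by less than 2-fold in at least one region. Matr3, a nuclear matrix protein that binds RNA, was called on 1434888_a_at (0.42 ± 0.08, adjusted p 0.00643) and 1450874_at (0.77 ± 0.17, adjusted p 0.0425). Another bright probe set, 1438368_a_at, read 12.33 and 12.48 against 12.00 and 12.15 and was not called, and RIIIS/J ranked highest of 27 on all 3 in both regions. A dim one (1458508_at) lay 0.47 below in cortex and 0.29 above in accumbens. Cul3, the scaffold of a family of ubiquitin ligases, was called at 0.74 ± 0.15, Pcnx2 at 0.94 ± 0.20 and 2510039O18Rik at 0.87 ± 0.17. The call of 1450874_at and that of Pcnx2 were lost when each array was centred on its median.

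Many of the largest departures were shared with other strains and so were not called. Among the 72 lower probe sets, 23 had no other strain at least 1 unit low in both regions, 27 had 1 to 4 such strains and 22 had 5 or more, and among the 42 higher ones the numbers were 16, 14 and 12. Cap1, a protein that recycles actin monomers, is the clearest case. Its probe set 1417462_at read 2.66 and 2.94 in RIIIS/J, against medians of 8.13 and 8.39. Its other probe set read 3.60 and 4.45 against 9.38 and 9.30. AKR/J, C57BL/6J, KK/HlJ, NON/LtJ and P/J were also at least 1 unit low on both, reading 3.04 to 5.30 on 1417462_at in cortex, so the limma estimate of -4.77 ± 1.58 had an adjusted p of 0.597. Slc8a1, a sodium and calcium exchanger, read 3.18 and 3.35 on 1437675_at against 8.04 and 7.07, with 3 other strains low. Its second tested probe set, 1440201_at, lay 0.17 and 0.89 below. Gsn, gelsolin, an actin-severing protein, read 2.94 and 3.21 on 1456312_x_at against 6.80 and 7.58, with 4 other strains low, while its 3 other tested probe sets lay between 0.88 below and 0.21 above their medians.

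Stk25, a protein kinase, read 3.60 and 2.38 against 6.77 and 6.05, with 3 other strains as low and 7 at least 1 unit above. Vcp, an ATPase that unfolds ubiquitinated proteins, read 3.53 and 3.31 on 1457588_at against 5.87 and 6.19, with 6 other strains as low. Slc1a2, the main glutamate transporter of astrocytes, read 6.59 and 7.01 on 1439940_at against 9.20 and 8.84. On this probe set 7 other strains were as low and 9 at least 1 unit above. The bright probe sets of Vcp and Slc1a2 lay close to the other strains. Vcp 1423030_at lay 0.21 and 0.13 below medians of 10.29 and 10.27, and Slc1a2 1438194_at lay 0.22 and 0.28 above medians of 12.46 and 11.97. On the high side, Hspa13, a chaperone of the 70-kDa heat shock family, read 8.83 and 8.45 on 1453172_at against 6.06 and 6.39, with 7 other strains as high. Norad, a long noncoding RNA that binds Pumilio proteins, read 7.33 and 8.07 on 1432646_a_at against 5.45 and 5.73, and 12.83 and 12.62 on its bright probe set against 12.74 and 12.67. On 1432646_a_at 3 other strains were as high and 6 at least 1 unit below. Serpina3n, a protease inhibitor of the acute-phase response, read 8.39 and 6.24 against 5.65 and 4.39, with 6 other strains as high.

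Pdxdc1, which encodes a protein with a pyridoxal-dependent decarboxylase domain, was split in opposite directions. Probe set 1419327_at read 6.81 and 6.34 in RIIIS/J against medians of 2.37 and 2.19, and 1452705_at read 3.56 and 3.02 against 6.71 and 6.66. The 6 other strains high on the first were the 6 low on the second, BALB/cByJ, C3H/HeJ, CBA/J, DBA/2J, KK/HlJ and WSB/EiJ. Paip1, which binds the poly(A)-binding protein in translation, had 2 probe sets 2.34 to 2.88 above their medians, while another, 1451740_at, lay within 0.34 of its medians.

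Some members neighbour each other in the genome. The gene order was that of RefSeq (GRCm38.p6), in which 75 of the 83 member genes were found. Counting only members with no other member between them, 7 pairs lay at most 10 protein-coding genes apart. The number of such pairs among as many genes drawn from all those tested was not computed, so this count is a description only. Paip1, 4833420G17Rik and Tmem267 follow each other on chromosome 13, the first high and the other 2 low. The 5 other strains low in 4833420G17Rik were all among the 9 high in Paip1 and the 7 low in Tmem267. Zfp945 and Zfp40, zinc finger genes of chromosome 17, were both low, and all 7 strains low in Zfp945 were low in Zfp40. Sfpq lies 6 genes from 5730409E04Rik, which is 2 from Ago4, all 3 low and all on chromosome 4. The strains low in 5730409E04Rik (A/J and NZW/LacJ) were not low in Sfpq. NZW/LacJ was also the only other strain low in Ago4. Rab14, high on 1 of 6 tested probe sets, adjoins Gsn on chromosome 2, with Dab2ip 5 genes further.

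Most members rested on 1 probe set of several. Of 53 member genes with 2 or more tested probe sets, 43 had only 1 that was a member and 5 had all of them (Cap1, Dcx, Egr2, Sbsn and Tmem123). The 78 other tested probe sets of member genes included 50 within 0.5 of the median in both regions, and 33 lay on the member's side in both. Another 17 member genes have 1 probe set on the array. The sequences of the probes and of the RIIIS/J genome were not used here.

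**Figure D3:**
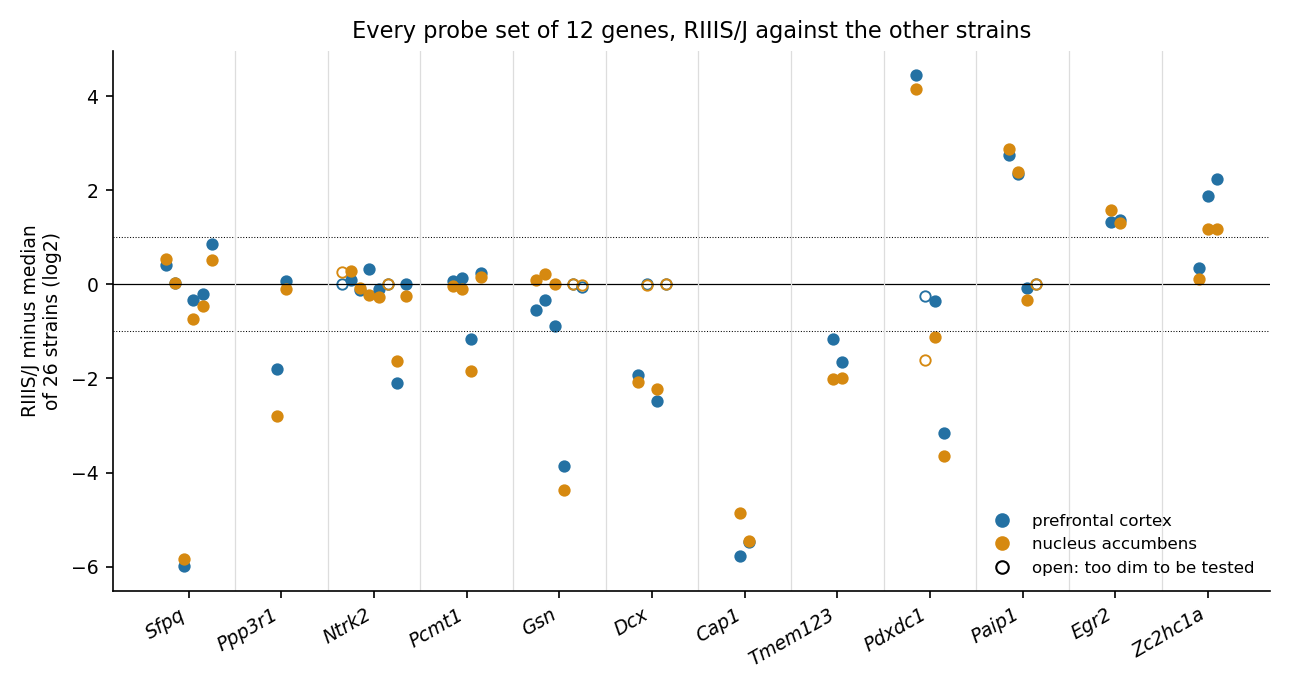
Log2 difference between RIIIS/J and the median of the other 26 strains for every probe set of 12 genes, blue for cortex and orange for accumbens, open where the probe set was too dim to be tested; dotted lines mark 1 unit. In Sfpq, Ppp3r1, Ntrk2, Pcmt1 and Gsn 1 probe set lies below the rest in both regions, in Cap1, Tmem123 and Egr2 all lie together, and in Pdxdc1 they lie on both sides.

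Grm3 and Ntrk2 were the only receptor genes of the list among the members. Of 89 receptor genes tested, on 146 probe sets, 3 (3.37%) had a probe set at least 0.5 units low in RIIIS/J in both regions, against 159 of all 8811 genes (1.8%). Another 3 (3.37%) had one at least 0.5 high in both, against 162 of all genes (1.84%). No receptor probe set was called by limma. On the brightest probe set of each gene 30 of the 89 receptors lay below both medians and 17 above both, against 29.7% and 28.9% of all genes, and the median over receptors was -0.05.

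The receptors low in both regions were Grm3, Ntrk2 and Ntsr2. Grm3 encodes the metabotropic glutamate receptor mGlu3, which inhibits adenylyl cyclase in neurons and glia. Its 1 probe set read 6.18 in RIIIS/J cortex and 5.67 in accumbens, against medians of 9.48 and 9.51. WSB/EiJ (5.76 and 6.63) and NON/LtJ (6.28 and 6.67) were as low, and the others, MRL/MpJ and NZO/HILtJ included, read 8.97 or more in cortex. The limma estimate was -3.31 ± 0.85, with an adjusted p of 0.160. The differences were 9.91-fold in cortex and 14.3-fold in accumbens. Ntrk2, the BDNF receptor TrkB, was lowest of 27 strains in both regions on 1446712_at (3.75 and 3.80 against 5.84 and 5.43; adjusted p 0.0682). Its 5 other tested probe sets, at medians of 7.87 to 10.39, lay between 0.28 below and 0.32 above. Ntsr2, a neurotensin receptor known from astrocytes, read 8.11 and 8.44 against 9.02 and 9.08, 53.3% and 64.0% of the median intensity.

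Receptors at least 0.5 high in both were Gabrg1, Ntrk3 and Trhr, each on 1 probe set. Trhr, the receptor of thyrotropin-releasing hormone, read 8.17 in RIIIS/J accumbens against a median of 6.70 and was dim in cortex (3.86 against 3.23). By receptor class, 0 of 13 ionotropic glutamate receptor genes, 0 of 10 monoamine receptor genes and 0 of 3 acetylcholine receptor genes had a probe set at least 0.5 low in both regions; the share of all genes, 1.8%, would give fewer than 1 in each class. Of 17 neurotrophin, Eph and other tyrosine kinase receptor genes, 9 (52.9%) lay below both medians and 2 (11.8%) above both, with 0 called. The shares of all genes were 29.7% and 28.9%. Of 13 GABA and glycine receptor genes 3 lay below both and 4 above both, and the cannabinoid, purine and orphan class gave the same counts. The dopamine receptors of the accumbens did not stand apart, with Drd1 at 10.89 against 10.87 (1456051_at) and Drd2 at 8.61 against 8.70.

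Immediate early genes, which neurons switch on within minutes of activity, lay above the other strains' medians as a group, with no single call. Of 13 tested, 11 lay above both medians and 0 below both, and the median over the list was 0.64, against -0.01 over all genes, of which 28.9% lay above both. Their mean on the RIIIS/J cortex array was 9.04 (the other strains 7.67 to 9.44, median 8.33), the 24th of 27 from the lowest, and on the accumbens array 7.73 (5.51 to 8.19, median 7.06), the 25th. Both groups of values overlap. Egr2, a zinc finger transcription factor, read 8.85 in RIIIS/J cortex and 7.23 in accumbens on 1427682_a_at against medians of 7.52 and 5.64, and its second probe set lay 1.38 and 1.30 above. Fosl2, a partner in AP-1, read 8.33 and 8.42 on 1437247_at against 6.84 and 6.48, the highest of 27 strains in both (adjusted p 0.745). Nr4a3, an orphan nuclear receptor of the same response that was not on the list, read 8.02 and 7.76 against 6.96 and 6.11. Fos lay 0.87 and 1.02 above, Nr4a1 0.66 and 1.12, and Arc 1.35 and 0.37. The exceptions were Btg2, 0.20 below in cortex, and Homer1, whose brightest probe set lay 0.32 below in accumbens although 1436387_at lay 1.50 and 0.94 above. Ier2 was dim in accumbens, where RIIIS/J and the median were both 2.62.

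**Figure D4:**
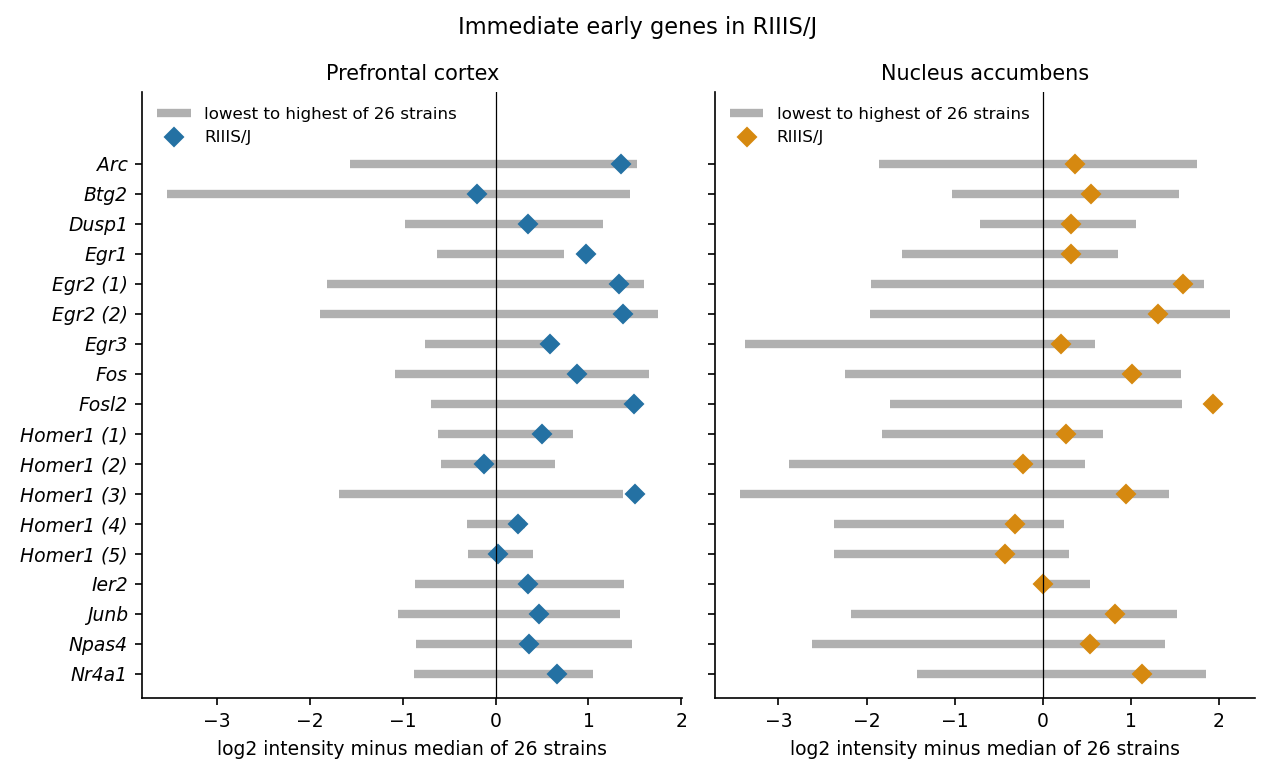
Each row is a tested probe set of an immediate early gene, numbered where a gene has several; grey bars span the other 26 strains and diamonds are RIIIS/J, as log2 differences from the other strains' median. Most diamonds lie to the right of 0 in both regions but within the grey bars, with Fosl2 beyond them in both regions and Egr1 and 1 Homer1 probe set beyond them in cortex.

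Because the members Egr2, Fosl2 and Nr4a3 were high together, their start regions are shown from RefSeq (GRCm38.p6), 300 bases each, 5' to 3'. Such genes are known to be switched on through the cAMP response element, TGACGTCA, its half-site TGACG, which the full site contains, and the CArG box of serum response factor. Capitals mark half-sites, on either strand, and CArG boxes.
Egr2, chr10:67537619-67537918, plus strand: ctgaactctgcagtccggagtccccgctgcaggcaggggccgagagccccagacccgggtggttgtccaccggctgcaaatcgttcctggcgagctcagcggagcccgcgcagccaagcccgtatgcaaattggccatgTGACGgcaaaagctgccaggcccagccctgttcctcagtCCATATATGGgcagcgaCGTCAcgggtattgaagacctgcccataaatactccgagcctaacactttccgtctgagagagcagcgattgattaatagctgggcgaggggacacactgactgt
Fosl2, chr5:32136222-32136521, plus strand: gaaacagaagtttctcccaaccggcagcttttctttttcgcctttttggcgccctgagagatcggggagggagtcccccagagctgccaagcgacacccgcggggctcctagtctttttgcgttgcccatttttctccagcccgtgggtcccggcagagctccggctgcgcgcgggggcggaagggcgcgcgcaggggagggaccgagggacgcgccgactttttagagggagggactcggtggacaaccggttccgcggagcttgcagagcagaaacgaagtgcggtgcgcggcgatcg
Nr4a3, chr4:48045055-48045354, plus strand: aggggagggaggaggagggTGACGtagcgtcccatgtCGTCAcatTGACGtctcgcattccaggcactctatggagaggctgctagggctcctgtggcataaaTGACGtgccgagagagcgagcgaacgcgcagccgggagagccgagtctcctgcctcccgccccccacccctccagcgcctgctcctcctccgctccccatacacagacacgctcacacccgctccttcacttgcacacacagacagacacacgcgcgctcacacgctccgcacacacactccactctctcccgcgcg
The Egr2 window held 2 half-sites and 1 CArG box, the Nr4a3 window 4 half-sites and the Fosl2 window neither motif. Egr2 has 5 such windows in the table, of which 3 hold a half-site and 4 a CArG box, and the one with the most matches is printed. None of the 3 printed windows holds the full site. Of 32851 windows of this length, 20.8% hold a half-site, 1.79% the full site and 1.63% a CArG box. These letters are a description and show no binding.

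Of the relatives of Sfpq, none was called lower. Of 16 DBHS and paraspeckle genes tested, 8 lay above both medians, 3 below both, and the calls were Sfpq and Matr3 as above. Nono and Pspc1 lay within 0.13 of their medians on their brightest probe sets. Zfr, a zinc finger RNA-binding protein, was a member on 1449552_at (5.95 and 6.30 against 7.33 and 7.70), where 9 other strains were as low, while its bright probe set 1419650_at lay within 0.09. Of 49 splicing factor genes tested, 27 (55.1%) lay above both medians and 7 below both, with 0 called, against 28.9% and 29.7% of all genes. The median over them was 0.09. Tra2a lay 0.71 and 0.80 above on 1442886_at, Clk4 0.82 and 0.65 on 1422886_a_at and Celf1 0.80 and 0.88 on 1425932_a_at.

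Class I histocompatibility genes, which present peptides to T cells and vary between strains by haplotype, included 2 member genes, each low on 1 probe set. H2-D1 lay 2.34 and 1.86 below its medians on 1425545_x_at, with 8 other strains as low, and H2-K1 read 4.53 and 3.45 against 5.54 and 4.85, with 5. The other tested H2-D1 probe set, 1451784_x_at, lay 0.94 and 1.30 below, while 1451683_x_at, too dim to be tested, lay 1.67 and 1.06 above its medians, with 5 other strains as high. Of the von Willebrand factor list only Stxbp5 was bright enough to test, at 0.35 above in cortex and 0.08 below in accumbens on 1435398_at. Of 9 endothelial and mural markers 7 (77.8%) lay below both medians, against 29.7% of all genes, with a median of -0.26 and 0 called. Their mean was 6.74 in RIIIS/J cortex (5th lowest of 27) and 6.36 in accumbens (2nd lowest). Of 38 voltage-gated channel genes 18 (47.4%) lay below both medians and 4 (10.5%) above both, with a median of -0.06 and 0 called. On any probe set, 1 of them (2.6%) was at least 0.5 lower in both regions and 3 (7.9%) at least 0.5 higher. The shares of all genes were 1.8% and 1.84%. Of 10 microglial markers 5 lay above both medians and 2 below both, with a median of 0.03; the 2 with a probe set at least 0.5 higher in both were C1qb, 0.66 and 0.92 above, and C1qc, 0.92 and 0.59.

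The other members can be grouped by role, none of them called. Among the lower ones, calcium and synaptic genes were Camk4, a calcium-dependent kinase (8.40 and 9.20 on 1439843_at against 9.81 and 10.36), Atp2b2, a plasma membrane calcium pump (7.83 and 7.58 on 1420402_at against 9.36 and 8.90, with 10 other strains as low), Rph3a, a vesicle protein that binds Rab3 (7.55 and 4.83 against 8.62 and 6.69), and Asph. Small GTPases and their regulators were Rap2b, Rasal2 and Dab2ip, the last lowest of all strains in both regions (adjusted p 0.0519). Wdfy3, a scaffold of selective autophagy, read 6.17 and 6.39 on 1427456_at against 7.25 and 7.90 and was also lowest in both. Atxn1, Agpat1, Ago4, Fyco1, Gas7, Timm9, Tef, Cuedc1, C1qtnf12, Chic1, A2ml1, Sbsn, 4933431E20Rik and 1500011B03Rik complete the lower side. Among the higher ones, Cyp2d22, a cytochrome P450, read 6.35 and 6.63 against 5.04 and 4.68 and was above all strains (adjusted p 0.128). Klhl42, an adaptor of Cul3 ligases, read 6.52 and 5.83 against 5.33 and 4.17, also above all strains. Mtm1, the phosphoinositide phosphatase myotubularin, read 8.66 and 9.49 on 1434278_at against 7.21 and 7.53, with A/J, BUB/BnJ and MA/MyJ as high. Galc, the lysosomal galactosylceramidase, read 5.80 and 6.57 against 4.77 and 5.45, and 6 other strains were as high. The remaining higher members were Nfia, Tiparp, Rbm45, Snrnp35, Zc2hc1a, Tmem167b, Enpp5, Pds5a, Rpl41, 1500009C09Rik, 2610005L07Rik and 6820431F20Rik.

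The threshold separates genes of like size. Just inside it were 2610005L07Rik (1.00 in cortex and 1.14 in accumbens), H2-K1 (-1.01 and -1.40) and Pds5a (1.01 and 1.19), and just outside were Jakmip1 (0.99 and 1.56), Tctn3 (-1.22 and -0.98) and Samd4 (-0.98 and -0.98). Of the probe sets too dim to be tested, 6 passed the rule on the high side with RIIIS/J above log2 5 in both regions. The low side has no such count, because other strains' medians above log2 5 in both regions already pass the filter. Gdpd3, a phospholipid-cleaving enzyme, was one, at 6.39 and 6.51 against medians of 2.10 and 2.13, and 6 other strains lay at least 1 unit above these same medians. A second probe set of Mtm1 was another, at 6.02 and 7.18 against 3.54 and 4.02.

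RIIIS/J was not an unusual strain by this measure. Its 114 probe sets at least 1 unit away in both regions ranked 10th of 27, when each strain was set against the median of its own 26 others. The other strains had 34 to 181 (median 100), with 13 to 134 lower (median 60) and 21 to 65 higher (median 38.5). Between 1 (C57BR/cdJ) and 23 (CE/J) of its probe sets were also at least 1 unit away in the same direction in another strain. The 23 are 20.2% of the RIIIS/J list and 14.9% of the CE/J list, which is the second longest. By share of the other strain's own list C3H/HeJ (18.8%), MA/MyJ (17.5%), NZW/LacJ (15.6%), 129S1/SvImJ (15.5%), NON/LtJ (15.2%) and DBA/2J (15.2%) came above CE/J. For 26 of its lower and 13 of its higher probe sets RIIIS/J lay beyond all other strains in both regions, by 1 unit or more for 7 and 2.

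**Figure D5:**
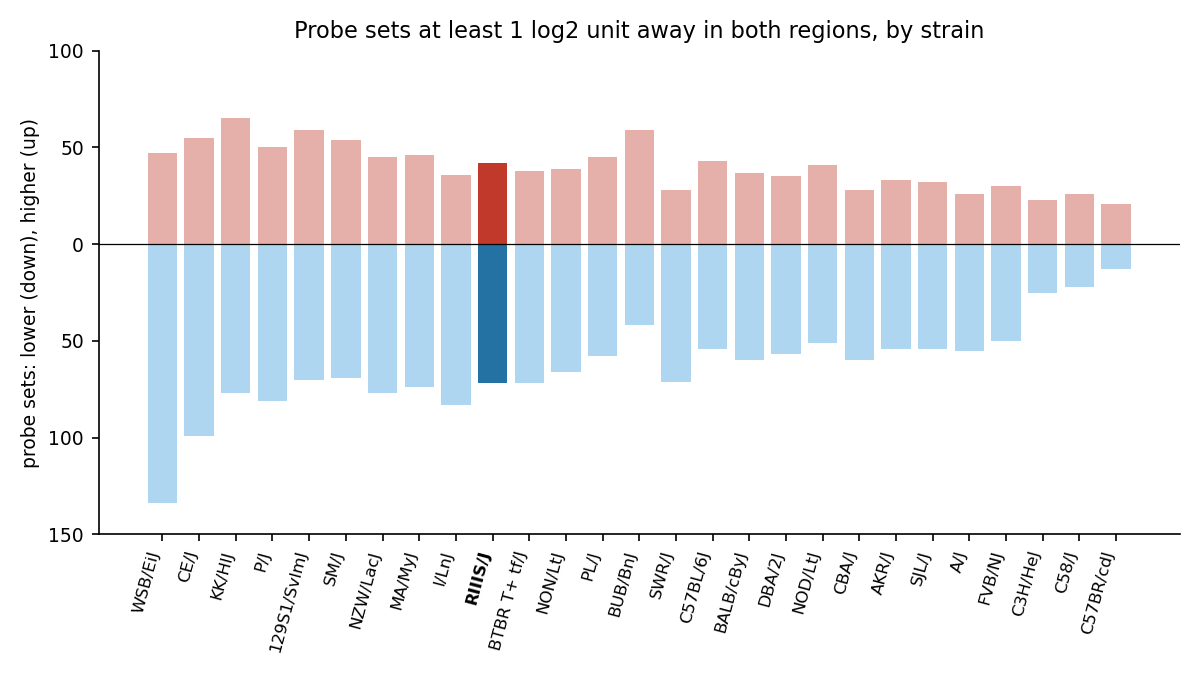
Number of probe sets at least 1 log2 unit higher (up) or lower (down) in both regions in each of the 27 strains, with RIIIS/J in dark colours. RIIIS/J, at 42 higher and 72 lower, lies among the other strains, of which WSB/EiJ has the most.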

How the data were processed

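RNA from prefrontal cortex and nucleus accumbens was measured on 56 single-colour Affymetrix arrays, 1 per strain and region, in cortex for 29 strains and in accumbens for 27. The deposited values are linear intensity, made by the authors with GCRMA per the submitters' processing notes (version not given in the sources used here). From here log2 was taken with no pseudocount, and of 45015 probe sets 16056 were tested, those that exceeded log2 5 in 13 or more arrays out of the 54 of strains with both regions. Gene names came from the platform annotation: 34893 probe sets have 1 symbol, 923 several and 9135 none, and only single symbols are named.

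The test was limma 3.58.1 (R 4.3.3), with moderated variances (two-sided, Benjamini-Hochberg over all probe sets tested, threshold 0.05) on strain means of both regions, RIIIS/J against 26 strains. RIIIS/J is 1 pool and was assumed to vary like the other strains, so p-values measure the spread between strains. Differences "above" or "below" are from the other strains' median in the same region, cortex first. "As low" or "as high" means at least 1 log2 unit the same way in both regions, each strain against the median of its own 26 others. A fold with a side under log2 5 was computed from log2 5 and is a bound. The number of arrays limits the precision. A simulation drew independent, normally distributed strain means, so it does not cover probe sets on which several strains are low or high together. On simulated data for this comparison, 63.7% of changes of 1 unit, 93.8% of 2 and 97.5% of 3 were called, and 0.0568% of unchanged probe sets, of 16056. Named genes were the 15 lowest and 15 highest members, receptors at least 0.5 units low in both regions, and 3 genes of each list with the largest deviation. Many named probe sets fall outside this rule: their genes were called or are members, and were named after their values were seen. Members and gene lists were chosen with earlier results of these data known.

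The labels leave unsaid if the same mice supplied cortex and accumbens. Of 27 cortex arrays 21 correlated best with the accumbens array of their own strain, as deviations from the mean of all 27 strains.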

Additional observations from a re-analysis of the deposited data

How the results depend on the processing

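RIIIS/J is 1 pool per region, so leaving out a RIIIS/J array leaves 1 region. In cortex alone limma called 21 lower and 5 higher, keeping 17 of 26 and 4 of 11, and in accumbens alone 23 and 8, keeping 19 and 4. The strain as a replicate block gave 193 lower and 183 higher, with all 26 and 11 kept, and strain as a random block 40 and 21. With no filter the calls were 47 and 228, the region difference 172 instead of 0, and 64 probe sets passed the 1-unit rule on the high side. A filter at log2 7 gave 10 and 5 calls and 37 and 15 by the rule. The brightest probe set per gene gave 17 and 7, and an adjusted p under 0.01 left 6 higher. Without the 5 strains that stood apart 43 were called lower, with 25 of the 26 kept. By the rule, values under log2 5 raised to it left 40 lower, 0.75 units gave 110 and 90, and 1.5 units 41 and 11. Among named probe sets 8 values changed sign, none of them called: in cortex alone Sorcs1 1436662_at (0.11), Btg2 1416250_at (-0.027) and Homer1 1439662_at (0.041), in accumbens alone Stxbp5 1435398_at (-0.064), Matr3 1458508_at (0.30), Homer1 1437363_at (-0.086) and Ier2 1416442_at (-0.0195), and with the log2 5 floor Matr3 1458508_at (0.065). The causes were not tested, apart from fewer arrays or probe sets where the setting itself removes them. Signal near background limits the size of low values.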
